A study of Homo sapiens with 9 samples.

Results

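Cells keep superoxide and hydrogen peroxide low with a small set of enzymes, and 10 genes of that set were followed here in MDA-MB-231 cells given the copper chelator TEPA. The rule lists them by name. They are the superoxide dismutases SOD2 and SOD3, the catalase gene CAT, the glutathione peroxidases GPX1 and GPX4, and the peroxiredoxins PRDX1, PRDX3 and PRDX5. They also include GSR (glutathione reductase) and TXN (thioredoxin), which serve the electron supply of glutathione peroxidases and peroxiredoxins. All 10 were found among the 59453 gene names of the count table, and all 10 passed the expression filter that left 16556 genes for testing.

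MDA-MB-231 is an established human breast cancer line that lacks the oestrogen and progesterone receptors. TEPA is a polyamine that binds copper ions. RNA-Seq compared 3 groups of 3 replicates, namely untreated cells, cells given TEPA for 8 h and cells given TEPA for 24 h, with no genetic change in any group. The TEPA concentration is 8 mM in the labels and 4 mM in the RNA sequencing methods, and 1 untreated group, whose harvest time the labels do not give, served both times.

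Superoxide dismutases turn superoxide into hydrogen peroxide, SOD2 in the mitochondrial matrix with manganese and SOD3 outside the cell with copper and zinc. Catalase, a haem enzyme of peroxisomes, splits hydrogen peroxide into water and oxygen. Glutathione peroxidases use glutathione, which GSR regenerates with NADPH, and peroxiredoxins use a cysteine that thioredoxin reduces again. An mRNA level does not give the amount or the activity of an enzyme.

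Total counts per library were between 34633755 and 49342659. SOD3, the lowest of the 10 genes in counts, still had 780 or more in every library. Expression is given as CPM, a gene's count scaled to the same library size after TMM scaling of the totals, and changes are log2 fold changes from edgeR's quasi-likelihood test, with p-values adjusted over all 16556 genes. A gene was called higher or lower at an adjusted p under 0.05. Untreated replicate 1 differed most from the other libraries of its group. Its median absolute log2 difference over genes was 0.12, against 0.06 to 0.10 in the other 8 libraries. Values below whose call or sign changed without it are given with and without it. The line's markers VIM (vimentin), CD44, MSN and CAV1 were expressed, with VIM at 3674 CPM in untreated cells, and ESR1 and PGR were at or near 0, although KRT8, listed as a gene to be low in this line, was at 405 CPM. Of 8 markers of blood, endothelial, fibroblast and liver cells, CD3E was at 0 in every library and 5 had at most 10 counts in every library. Their summed level was 5.93 to 9.33 CPM in untreated cells, 1.73 to 2.095 CPM at 8 h and 11.3 to 13.4 CPM at 24 h, mostly CD14 and PECAM1, and their part in the results below was not tested. The metallothionein genes, which answer to metal levels, were lower in TEPA-treated cells, MT2A by a log2 fold change of -1.15 at 8 h and -1.60 at 24 h.

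After 8 h of TEPA, CAT, GPX4, PRDX3 and PRDX5 were lower and 0 of the 10 genes were called higher by edgeR, with 0 also at an unadjusted p under 0.05 and with DESeq2. After 24 h, SOD2, GPX1, GPX4, PRDX3 and PRDX5 were higher, while CAT, GSR and TXN were lower. In number, 4 of 10 genes were called at 8 h, where 49.6% of all genes tested were called, and 8 of 10 at 24 h, where 52.5% were called. Between 24 h and 8 h of TEPA, 7 of the 10 differed, against 54.8% of all genes. Of these, 5 were higher at 24 h (SOD2, GPX1, GPX4, PRDX3 and PRDX5) and 2 lower (GSR and TXN), where 26.0% of all genes were higher and 28.8% lower. The median log2 fold change of the 10 genes was -0.09 at 8 h and 0.06 at 24 h, against -0.001 and 0.002 over all genes tested. With a log2 fold change beyond 0.5 also required, CAT was the 1 gene called at each time (17.8% of all genes at 8 h and 18.7% at 24 h), and GPX4 and PRDX5 were called between the 2 times (21.2% of all genes). The 2 comparisons with untreated cells share their untreated libraries.

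**Figure D1:**
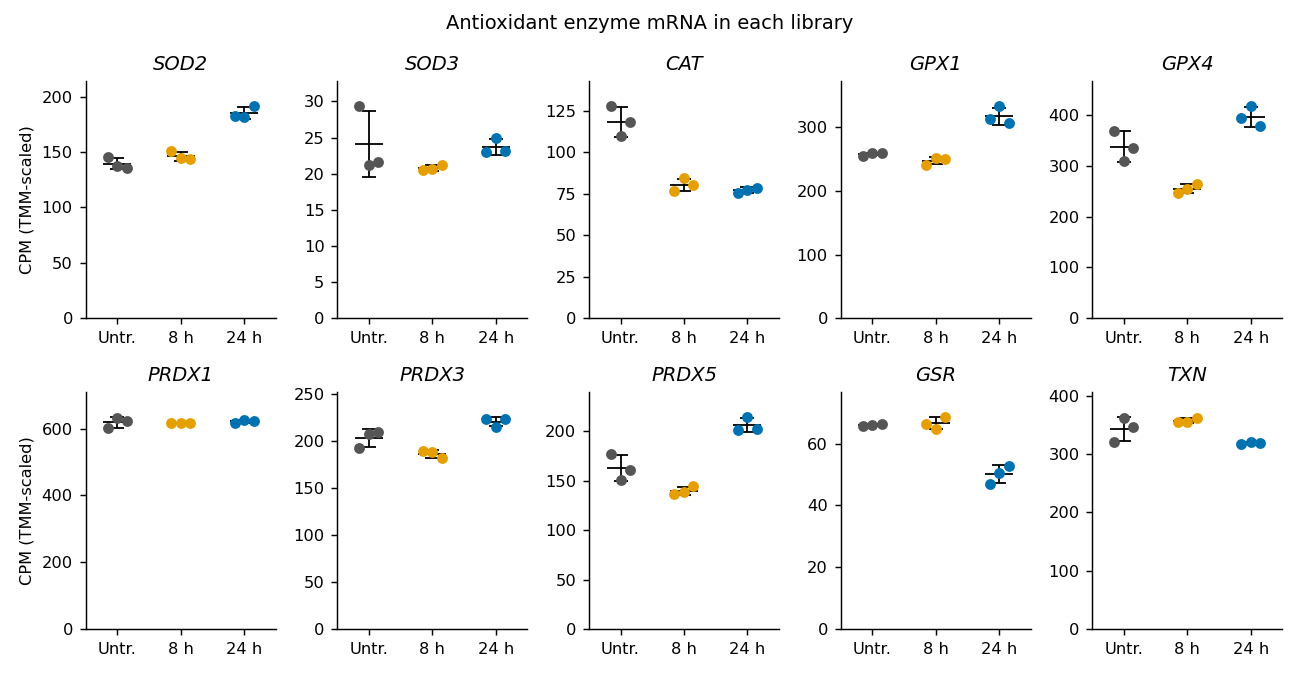
Level of each of the 10 genes in CPM on TMM-scaled library sizes (y axes start at 0 and differ between panels) in untreated cells and after 8 h and 24 h of TEPA. Points are single libraries, and bars are the mean ± SD of 3. CAT falls from 109.7 to 128 CPM in untreated cells to 75.2 to 84.3 CPM in TEPA-treated cells, and GPX4 and PRDX5 are lowest at 8 h and highest at 24 h.

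SOD2 (GRCh38 chr6:159669069-159762529, minus strand), the mitochondrial manganese enzyme, rose at 24 h. Its level was 146, 137 and 136 CPM in the untreated libraries, 151, 144 and 144 CPM at 8 h, and 182, 181 and 191 CPM at 24 h. The untreated and 8 h libraries overlapped, and each 24 h library was above all others. The log2 fold change was 0.41 (SE 0.04) at 24 h, an increase of 32.5% (adjusted p = 4.7e-07, edgeR's quasi-likelihood test, n = 3 per group). At 8 h it was 0.07 (95% interval -0.02 to 0.15, adjusted p = 0.17), which became 0.10 and was called (adjusted p = 0.047) when untreated replicate 1 was left out. From 8 h to 24 h SOD2 rose by 0.34 on the log2 scale (SE 0.04, adjusted p = 3e-06). The annotation gives SOD2 a same-strand neighbour, SOD2-OT1, over 5.2% of its exon bases.

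SOD3 (chr4:24789912-24800842, plus strand) encodes the extracellular copper and zinc enzyme, the only one of the 10 whose protein carries copper. Untreated libraries had 29.3, 21.1 and 21.7 CPM, TEPA libraries 20.5, 20.7 and 21.2 CPM at 8 h, and 22.9, 24.95 and 23.2 CPM at 24 h. Untreated replicate 1 was above all other libraries, and the other 2 untreated libraries were close to those at 8 h. The coefficient of variation of the untreated libraries was 19.0%, against 3.2% from counting error. No difference was called: the log2 fold change was -0.21 at 8 h (95% interval -0.41 to 0.00, adjusted p = 0.088) and -0.02 at 24 h (-0.22 to 0.18, adjusted p = 0.89). Without untreated replicate 1 these values were -0.04 and 0.14. Without untreated replicate 2 or 3, SOD3 was called lower at 8 h, at -0.30 (adjusted p = 0.015) and -0.28 (adjusted p = 0.04), so that the call at 8 h and the sign at 24 h rested on single libraries. The 24 h libraries were all above the 8 h libraries, with a log2 difference of 0.19 (95% interval -0.02 to 0.39) that was not called (adjusted p = 0.11). It was called with no filter (0.20, adjusted p = 0.015) and in a fit to the compared groups alone (0.21, adjusted p = 0.0037).

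CAT (chr11:34438934-34472060, plus strand) had the largest change against untreated cells among the 10 genes, and it fell at both times. Its level was 128, 109.7 and 118 CPM in untreated cells, 76.6, 84.3 and 80.2 CPM at 8 h, and 75.2, 77.5 and 78.7 CPM at 24 h. The groups did not overlap, with all 6 TEPA libraries under the lowest untreated one. CAT fell by 0.56 on the log2 scale at 8 h (SE 0.05, adjusted p = 4.6e-07) and by 0.62 at 24 h (SE 0.05, adjusted p = 9.6e-08). These are decreases of 32.2% and 34.9%. Leaving out any single library gave log2 fold changes of -0.62 to -0.51 at 8 h and -0.67 to -0.56 at 24 h. From 8 h to 24 h no further change was called, with a log2 difference of -0.06 (95% interval -0.17 to 0.05, adjusted p = 0.36).

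GPX1 and GPX4 are selenoproteins that use glutathione, GPX1 on soluble peroxides and GPX4 on lipid peroxides within membranes. GPX1 (chr3:49357174-49358605, minus strand) was at 256, 260.0 and 259 CPM in untreated cells, 241, 252 and 249.9 CPM at 8 h, and 313, 333 and 307 CPM at 24 h. The 8 h libraries were all below the untreated ones, yet by too little to be called (log2 -0.06, 95% interval -0.14 to 0.02, adjusted p = 0.2), and the 24 h libraries were all above. GPX1 rose at 24 h by a log2 fold change of 0.30 (SE 0.04, adjusted p = 6.6e-06), an increase of 23.1%, and rose by 0.36 from 8 h to 24 h (adjusted p = 8.6e-07). A second gene model of the newer annotation lies on the same strand over 39.9% of the GPX1 exon bases, so how reads were shared there depends on the annotation used, and the processed pseudogene GPX1P1 had 23 to 61 counts, 0.35% of those of GPX1.

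GPX4 (chr19:1103982-1106791, plus strand) moved in opposite directions at the 2 times. Untreated libraries had 369.5, 309 and 335 CPM. At 8 h the level was 246, 255 and 263 CPM, and at 24 h it was 394, 417 and 379 CPM. The 3 groups did not overlap in any pair, although untreated replicate 1 came close to the lowest 24 h library. GPX4 fell by 0.41 on the log2 scale at 8 h (SE 0.06, adjusted p = 1.9e-05), a decrease of 24.5%. It was higher than in untreated cells at 24 h by 0.23 (SE 0.05, adjusted p = 0.0022), an increase of 17.4%. Leaving out any single library gave -0.47 to -0.34 at 8 h and 0.17 to 0.30 at 24 h, and each fit kept the call. The -0.34 at 8 h was the value without untreated replicate 1. The difference between 24 h and 8 h, 0.64 (SE 0.06, adjusted p = 1.2e-07) or 1.56-fold, was the largest of the 10 genes.

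PRDX1 (chr1:45510914-45542732, minus strand), the abundant cytosolic peroxiredoxin, had nearly the same level in all groups. It was at 600.3, 631 and 623 CPM in untreated cells, 616, 616 and 615 CPM at 8 h, and 615, 626 and 623 CPM at 24 h. All TEPA libraries lay within the range of the untreated ones. The log2 fold change was -0.01 at 8 h (95% interval -0.08 to 0.07) and 0.01 at 24 h (-0.06 to 0.08), neither called (adjusted p = 0.9 and 0.86), so that changes beyond 0.08 on the log2 scale lie outside both intervals. PRDX1 overlaps MMACHC on the other strand over 29.8% of its exon bases, which strand-specific counting keeps apart.

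PRDX3 (chr10:119167720-119178812, minus strand) encodes the peroxiredoxin of the mitochondrial matrix. Untreated libraries had 192, 207 and 209.9 CPM, TEPA libraries 189, 188 and 182 CPM at 8 h, and 224, 215 and 223 CPM at 24 h. The 8 h libraries were the lowest and the 24 h libraries the highest, with no overlap but with small gaps. The log2 fold change was -0.12 at 8 h (SE 0.04, adjusted p = 0.018) and 0.12 at 24 h (SE 0.04, adjusted p = 0.021), which are changes of -8.19% and 8.48%. Both calls rested on single libraries. At 8 h the call was lost without untreated replicate 3 (-0.11, adjusted p = 0.073) or TEPA 8 h replicate 3 (-0.11, adjusted p = 0.07). At 24 h it was lost without untreated replicate 1 (0.08, adjusted p = 0.08), TEPA 24 h replicate 1 (0.11, adjusted p = 0.087) or replicate 3 (0.11, adjusted p = 0.055). The difference between 24 h and 8 h was 0.24 (SE 0.04, adjusted p = 9.9e-05) and held without any single library.

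PRDX5 (chr11:64318121-64321811, plus strand), a peroxiredoxin found in mitochondria, peroxisomes and cytosol, followed the same order of groups as GPX4. It was at 177, 151 and 161 CPM in untreated cells, 137, 138 and 144 CPM at 8 h, and 202, 214 and 203 CPM at 24 h. No 2 groups overlapped. PRDX5 fell by 0.22 on the log2 scale at 8 h (SE 0.05, adjusted p = 0.0019), a decrease of 14.2%. It rose by 0.34 at 24 h (SE 0.05, adjusted p = 3.5e-05), an increase of 26.6%. Leaving out any single library gave -0.28 to -0.16 at 8 h and 0.29 to 0.40 at 24 h, and each fit kept the call. The -0.16 at 8 h was the value without untreated replicate 1. From 8 h to 24 h it rose 1.48-fold, a log2 difference of 0.56 (SE 0.05, adjusted p = 1.9e-07).

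GSR (chr8:30678066-30727846, minus strand), which reduces oxidised glutathione, was lower at 24 h alone. Its level was 65.8, 66.0 and 66.3 CPM in untreated cells, 66.5, 64.6 and 68.5 CPM at 8 h, and 46.9, 50.5 and 52.9 CPM at 24 h. The 8 h libraries lay around the untreated ones and the 24 h libraries were below all others. GSR fell by 0.40 on the log2 scale at 24 h (SE 0.05, adjusted p = 3e-06), a decrease of 24.3%. At 8 h the log2 fold change was 0.01 (95% interval -0.09 to 0.11, adjusted p = 0.87), and the step from 8 h to 24 h was -0.41 (SE 0.05, adjusted p = 2.1e-06).

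TXN (chr9:110243810-110256507, minus strand), the small protein that hands electrons to peroxiredoxins, was at 320.3, 361 and 346 CPM in untreated cells, 355, 355 and 363 CPM at 8 h, and 318, 322 and 319 CPM at 24 h. The untreated libraries spread over both TEPA groups, and the 24 h libraries were below every 8 h library. TXN was called lower at 24 h than in untreated cells by a narrow margin (log2 -0.10, SE 0.04, adjusted p = 0.048). When single libraries were left out, 5 of 6 fits no longer made that call, and it held without untreated replicate 1 (adjusted p from 0.001 to 0.21 over the 6). Their log2 fold changes ran from -0.15 to -0.06. The call was also lost with DESeq2 (-0.09, adjusted p = 0.062), RLE size factors (-0.09, adjusted p = 0.061), upper-quartile factors (-0.08, adjusted p = 0.14), at least 10 counts in every library (-0.09, adjusted p = 0.069) and the compared groups alone (-0.10, adjusted p = 0.092). The difference between 24 h and 8 h was -0.16 (SE 0.04, adjusted p = 0.0033). At 8 h no change was called (0.06, 95% interval -0.03 to 0.15, adjusted p = 0.24). The TXN pseudogene copies TXNP6 and TXNP4 had at most 28 counts in any library.

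**Figure D2:**
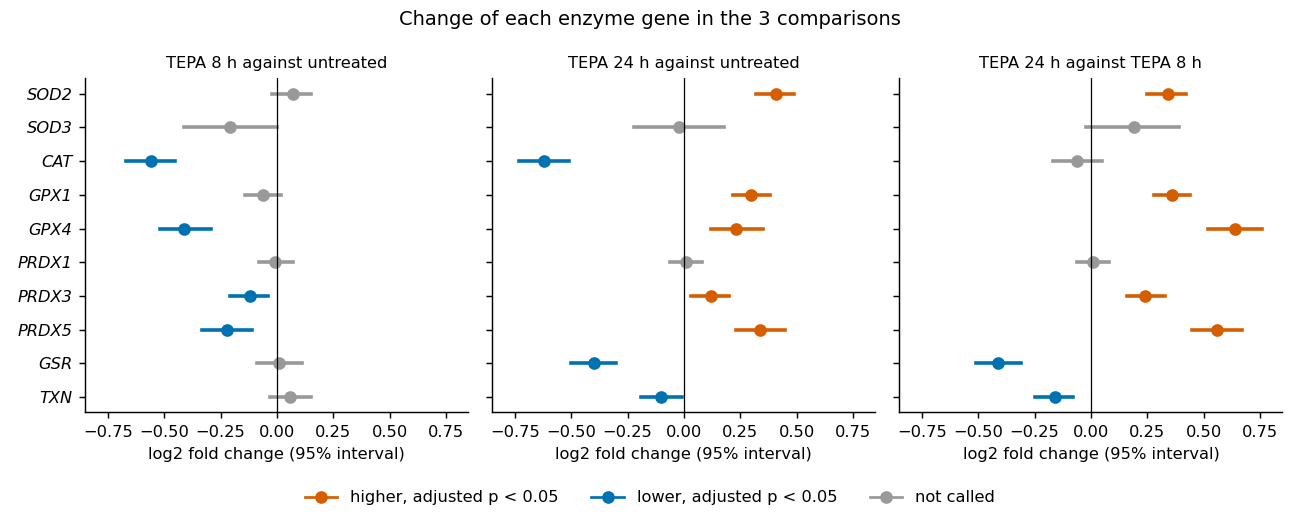
Log2 fold change of each gene (x axes) with its 95% interval in the 3 comparisons, from edgeR's quasi-likelihood test with 3 libraries per group. Orange and blue mark genes called higher and lower at an adjusted p under 0.05, and grey marks genes not called. CAT is left of 0 against untreated cells at both times, and GPX4 and PRDX5 are left of 0 at 8 h and right of 0 at 24 h.

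The libraries of the compared groups did not overlap for 5 of the 10 genes at 8 h, where this held for 57.8% of all genes tested. At 24 h they did not overlap for 7 of the 10 (57.2% of all genes), and between 24 h and 8 h for 8 of the 10 (62.0% of all genes). By place in the cell, SOD2 and PRDX3 of the mitochondrial matrix were higher at 24 h, PRDX3 by a call that rested on single libraries. The rise was not particular to them, since GPX1, GPX4 and PRDX5 were also higher then. At 8 h PRDX3 was lower while SOD2 was not called. CAT, a peroxisomal enzyme, and GSR were called lower at 24 h under every normalization, filter and left-out library tried. GSR was not past the log2 limit of 0.5. PRDX5, which is also found in peroxisomes, was higher at 24 h, unlike CAT.

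Promoter sequence was compared for the 3 genes called at both times with no call lost on leaving out a library: CAT, which fell at both times, and GPX4 and PRDX5, which fell and then rose. Each window below runs from 250 to 51 bases before the start of a RefSeq transcript (GRCh38.p14, plus strand, 200 bases), at chr11:34438684-34438883 for CAT, chr19:1103744-1103943 for GPX4 and chr11:64317871-64318070 for PRDX5. Capitals mark CCAAT, the box read by the factor NF-Y, on either strand (ATTGG on the other strand).
CAT: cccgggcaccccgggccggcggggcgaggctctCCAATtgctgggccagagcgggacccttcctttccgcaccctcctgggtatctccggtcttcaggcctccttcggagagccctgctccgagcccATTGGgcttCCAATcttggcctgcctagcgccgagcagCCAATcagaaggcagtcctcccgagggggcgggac
GPX4: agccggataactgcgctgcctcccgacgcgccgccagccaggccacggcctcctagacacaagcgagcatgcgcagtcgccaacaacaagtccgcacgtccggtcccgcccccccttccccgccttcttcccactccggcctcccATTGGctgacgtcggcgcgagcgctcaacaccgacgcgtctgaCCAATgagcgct
PRDX5: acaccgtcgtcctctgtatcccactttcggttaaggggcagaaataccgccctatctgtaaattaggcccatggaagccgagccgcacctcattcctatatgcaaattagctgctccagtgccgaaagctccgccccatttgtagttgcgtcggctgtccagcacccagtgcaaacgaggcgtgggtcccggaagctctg
The CAT window holds 4 CCAAT boxes, the GPX4 window 2 and the PRDX5 window 0. GPX4 and PRDX5 have further RefSeq starts. The GPX4 window at chr19:1104400-1104699 holds 0 CCAAT, so the number for GPX4 depends on the start taken. The PRDX5 window at chr11:64318036-64318335 also holds 0. Their GC content is 69%, 68.5% and 56.0%.

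RefSeq windows of 300 bases, from 250 before to 50 after a transcript start, were matched for 8 of the 10 genes, with 14 windows in all. PRDX1 and GSR had no entry. Searched on both strands, CCAAT was in 6 of the 14 windows and in 4 genes (CAT, GPX4, SOD2 and SOD3), against 34.6% of all 35116 promoter windows. The CAT window held 5 matches. GGGCGG, the GC box of the Sp1 family, was in 13 of the 14 windows and 7 of the 8 genes, against 45.0% of all windows. The SOD3 window was the exception. TGACNNNGC, the core of the antioxidant response element, was in 0 of the 14 windows and in 13.3% of all windows. Sites further than 250 bases before a start were not searched, so the 0 does not show that these genes lack the element. CCAAT and GGGCGG were chosen after the expression values were seen, the windows of a gene can overlap, and a match of letters is not a bound site. The windows compared with were not limited to genes expressed in these cells, so no enrichment can be read from the shares.

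Levels can be compared between genes only per length, here as CPM per kb of exon. In untreated cells PRDX1 was highest at 367 ± 9.48 (SD, n = 3), and TXN, at 339 ± 20.6, overlapped it. PRDX5 (190 ± 15.3), GPX4 (184 ± 16.4) and GPX1 (180.3 ± 1.56) followed and did not differ beyond their spread. Then came PRDX3 at 60.1 ± 2.86, CAT at 33.1 ± 2.51, GSR at 18.3 ± 0.07, SOD3 at 11.9 ± 2.26 and SOD2 at 7.69 ± 0.29, each apart from its neighbour. The SDs of GSR and GPX1 (0.39% and 0.87% of the mean) were below their counting errors (1.92% and 0.97%), so they understate the error. At 24 h PRDX5 (239.9 CPM per kb) stood above GPX1 (222) and GPX4 (216), which overlapped. At 8 h GPX1 (173) stood above PRDX5 (163), and PRDX5 above GPX4 (139). SOD2 was last in each group, over 18.1 kb of exon, and its canonical transcript is also long, at 14.2 kb. Before division by length, SOD2 (139.6 CPM in untreated cells) was above CAT (118), GSR (66.1) and SOD3 (24.0). Its last place thus rests on the annotated length, from a later annotation than the one counted with. With the length of the canonical transcript instead, GPX4 (397 CPM per kb in untreated cells) moved above GPX1 (287) and PRDX5 (190), with PRDX1, TXN and the last 5 places in the same order. At 24 h that length also put GPX4 (466) above TXN (433).

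**Figure D3:**
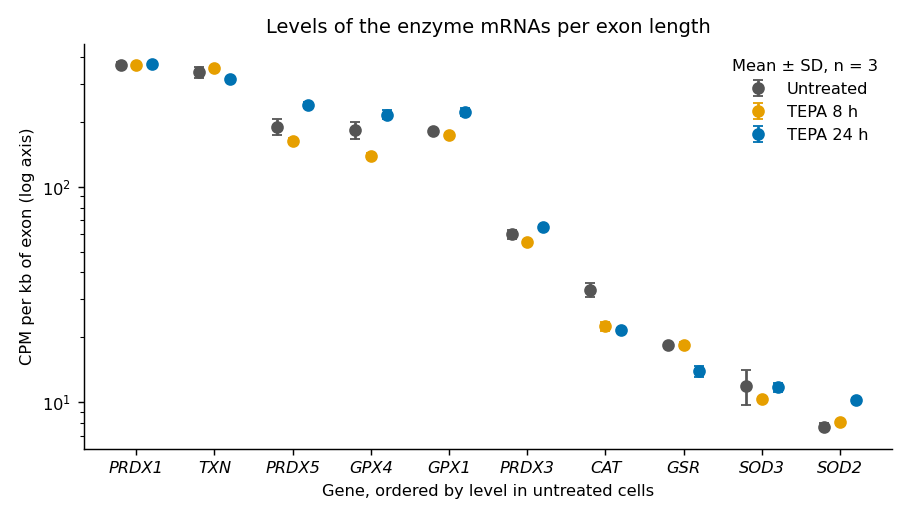
CPM per kb of exon (log y axis) for each gene, ordered by its level in untreated cells, with points at the mean and bars at ± SD of 3 libraries. PRDX1 and TXN are highest and SOD3 and SOD2 lowest in each group.

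Ratios of 2 genes within a library need no library size. They are given as a description, for pairs chosen after the values were seen. GPX4 counts per CAT count were 2.89, 2.82 and 2.83 in untreated cells, 3.21, 3.02 and 3.29 at 8 h, and 5.23, 5.38 and 4.81 at 24 h. The ratio thus varied little among untreated libraries, where GPX4 and CAT were each highest in replicate 1, and its mean was 2.85 ± 0.04, 3.17 ± 0.14 and 5.14 ± 0.29 (SD, n = 3) in the 3 groups. SOD2 per CAT was 1.18 ± 0.06 in untreated cells, 1.83 ± 0.13 at 8 h and 2.40 ± 0.05 at 24 h, with no overlap between groups. GPX1 per GSR was 3.91 ± 0.03, 3.73 ± 0.15 and 6.36 ± 0.48. PRDX5 per TXN was 0.478 ± 0.069, 0.391 ± 0.0065 and 0.646 ± 0.018. In both pairs the 24 h libraries were above all others. The peroxidase was higher at 24 h than in untreated cells, while GSR or TXN was lower, TXN by the narrow call above.

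**Figure D4:**
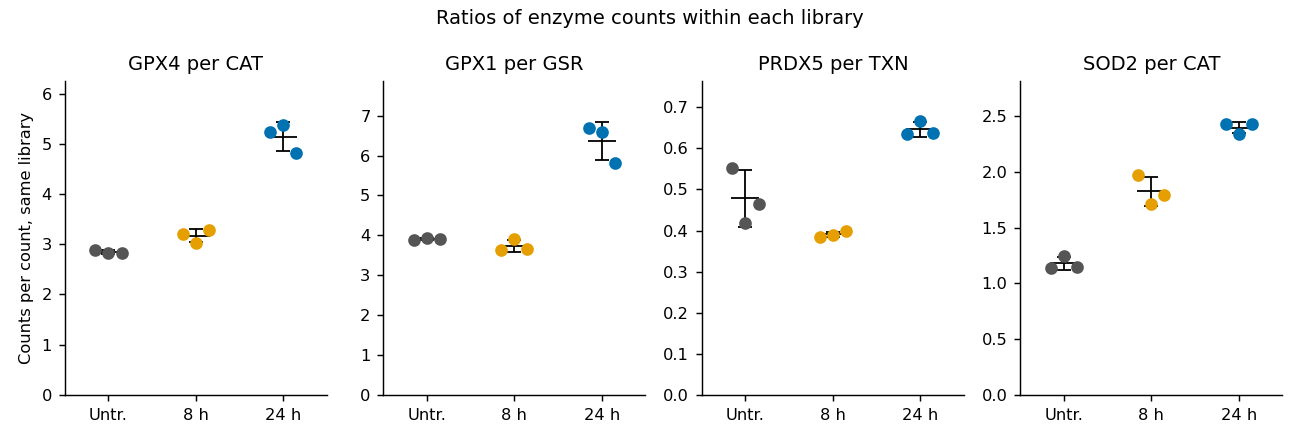
Counts of the first gene per count of the second in the same library (y axes start at 0 and differ between panels), with points for libraries and bars for mean ± SD of 3. The 24 h libraries lie above all others in each panel, and SOD2 per CAT and GPX4 per CAT are already higher at 8 h.

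Genes around these enzymes were taken from 8 lists of 118 genes, of which 101 were tested. At 8 h 22 were called higher and 43 lower, and at 24 h 20 were higher and 47 lower. Over all genes tested, 25.2% were higher and 24.5% lower at 8 h, and 25.7% and 26.8% at 24 h. These shares are the background for each list below. The median log2 fold change over the lists was -0.07 at 8 h and -0.11 at 24 h.

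Of the other glutathione peroxidases and peroxiredoxins, 5 of 9 were tested, and 1 was lower at 8 h while 3 were higher at 24 h. In the other direction 0 were called at either time, by edgeR with or without adjustment and by DESeq2. PRDX2, the second cytosolic peroxiredoxin, rose by 0.37 on the log2 scale at 24 h (adjusted p = 5e-06), with -0.10 at 8 h (adjusted p = 0.087), called without untreated replicate 2 (-0.15). PRDX4, the peroxiredoxin of the endoplasmic reticulum, rose by 0.22 and the secreted peroxidase GPX3 by 0.57 at 24 h. GPX8 was lower at 8 h (-0.16).

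Of 12 genes of glutathione supply and glutaredoxins, 5 were higher and 2 lower at 8 h, and 2 were higher and 6 lower at 24 h. SLC7A11, the cystine importer, rose by 0.24 on the log2 scale at 8 h (adjusted p = 0.035), and its 24 h value was -1.09 (adjusted p = 9.4e-08). The 8 h call was lost with DESeq2 (adjusted p = 0.14) and without untreated replicate 1 (0.14) or 3 (0.23) or TEPA 8 h replicate 1 (0.18) or 3 (0.25). Its partner chain SLC3A2 was higher at 8 h (0.39) and at -0.05 at 24 h (adjusted p = 0.43). GCLC, the catalytic subunit of the first step of glutathione synthesis, was lower at both times (-0.26 and -0.51), as was the glutaredoxin GLRX (-0.75 and -0.54).

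Of 15 tested genes of the thioredoxin system, 4 were higher and 6 lower at 8 h, and 3 were higher and 7 lower at 24 h. TXNIP, which binds and inhibits thioredoxin, rose by 1.24 on the log2 scale at 8 h and by 1.37 at 24 h (adjusted p of 2.6e-09 and 3.7e-10). SRXN1, which repairs overoxidised peroxiredoxins, was higher at 8 h (0.49) and at 0.15 at 24 h (adjusted p = 0.11). The methionine sulfoxide reductases MSRA (-0.41 and -1.20) and MSRB2 (-0.45 and -0.53) were lower at both times, as was nucleoredoxin, NXN (-0.50 and -0.19). TXN2, the mitochondrial thioredoxin, was not called at either time (-0.03 and 0.03, adjusted p = 0.6 and 0.53).

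Of 14 genes that supply NADPH, 2 were higher and 9 lower at 8 h, and 4 were higher and 7 lower at 24 h. PGD, an enzyme of the pentose phosphate pathway, was lower at 8 h (-0.36) and more so at 24 h (-0.87). The isocitrate dehydrogenases IDH1 and IDH2 were lower at 8 h (-0.59 and -0.60), and at 24 h IDH1 was at -0.24 (adjusted p = 0.0045) and IDH2 at -0.05 (adjusted p = 0.61). NADK2, the mitochondrial NAD kinase, was lower at both times (-0.22 and -0.44), and malic enzyme ME3 was higher at both (0.31 and 0.43). The 8 h call of NADK2 was lost without untreated replicate 3 (-0.20) or TEPA 8 h replicate 2 or 3 (-0.19 each).

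GPX1 and GPX4 need the selenocysteine machinery. Of 17 tested genes of that machinery and other selenoproteins, 6 were higher and 7 lower at 8 h, and 5 were higher and 6 lower at 24 h. EEFSEC, the selenocysteine elongation factor, fell by 0.88 on the log2 scale at 8 h and by 1.92 at 24 h (adjusted p = 5.5e-06 and 2.4e-09), on 97 to 482 counts per library. SEPSECS, which makes selenocysteine on its tRNA, was lower at both times (-0.90 and -0.50), and SECISBP2, which binds selenoprotein mRNAs, was higher at both (0.50 and 0.53). The selenocysteine lyase SCLY was higher at 8 h (0.66) and at -0.11 at 24 h (adjusted p = 0.34).

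Of 25 genes for sources of superoxide and peroxide, 14 were tested, with 2 higher and 8 lower at 8 h and 2 higher and 6 lower at 24 h. The oxidase NOX5 fell at 8 h (-1.74, adjusted p = 3.1e-05), and its 24 h value was -0.09 (adjusted p = 0.74), on 29 to 188 counts per library. ACOX2, a peroxisomal oxidase that yields hydrogen peroxide, was lower at both times (-1.16 and -1.41), as were MAOA (-0.70 and -0.44) and the NADPH oxidase activator NOXA1 (-0.29 and -1.30). Aldehyde oxidase, AOX1, was higher at 8 h (0.97) and lower at 24 h (-0.30, adjusted p = 0.044). The 24 h call of AOX1 was lost with DESeq2 (adjusted p = 0.14), without untreated replicate 2 (-0.13) or 3 (-0.28) and without TEPA 24 h replicate 1 (-0.30), 2 (-0.33) or 3 (-0.28). For NOXA1 the 8 h call was lost without untreated replicate 1 (-0.18) or 2 (-0.29) or TEPA 8 h replicate 1 (-0.22) or 3 (-0.32), and for MAOA the 24 h call was lost without untreated replicate 1 (-0.30).

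Catalase reaches peroxisomes through the matrix import machinery. Of its 10 genes, 0 were higher and 6 lower at 8 h, and 1 was higher and 5 were lower at 24 h, with medians of -0.18 and -0.20. The 0 at 8 h held at an unadjusted p under 0.05 and with DESeq2. PEX13, part of the docking complex, was at -0.64 at both times, and PEX7 was also lower at both (-0.39 and -0.31).

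SOD2 and PRDX3 enter mitochondria as precursors. Of 14 genes listed under mitochondrial protein import, 3 were higher and 4 lower at 8 h (median 0.08), and 0 were higher and 10 lower at 24 h (median -0.21). Over all genes tested, 25.7% were higher and 26.8% lower at 24 h. The 0 at 24 h likewise held at an unadjusted p and with DESeq2. TOMM40, the outer membrane channel, and TIMM44 and TIMM50 of the inner membrane were higher at 8 h (0.26, 0.31 and 0.32) and lower at 24 h (-0.30, -0.23 and -0.20). MIPEP, a peptidase that trims imported proteins, was lower at 24 h (-0.85). HSPA9, the matrix chaperone that pulls precursors in, was also lower then (-0.26). SOD2 and PRDX3 were themselves called higher at that time.

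**Figure D5:**
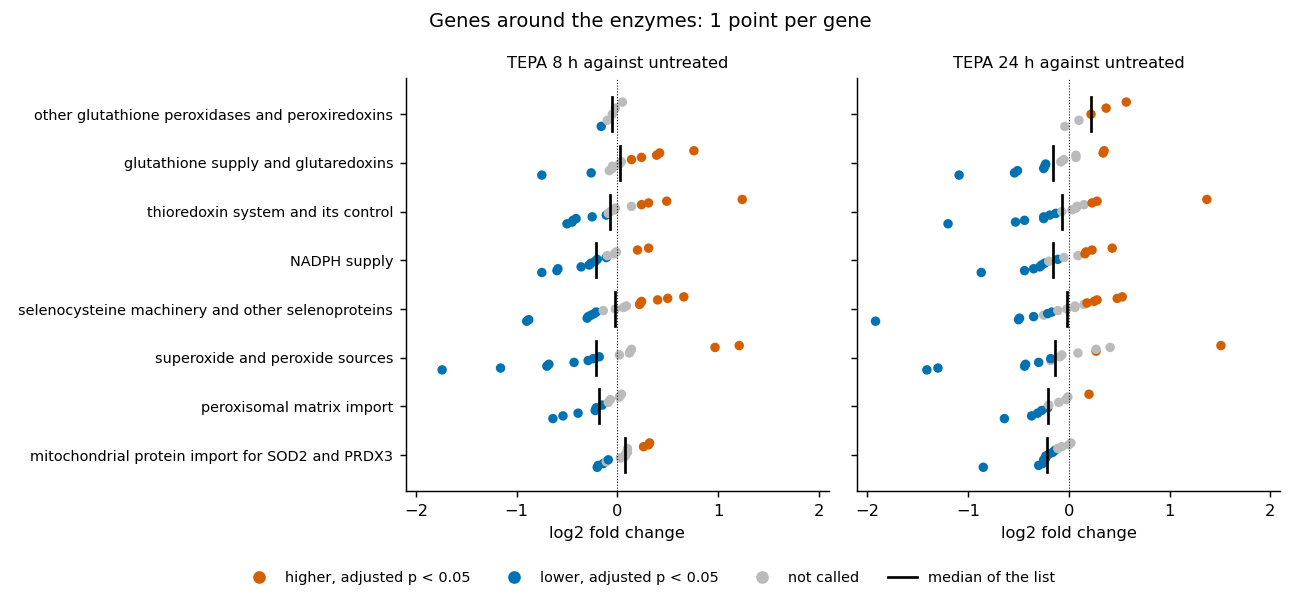
Log2 fold change (x axes) of each tested gene of the 8 lists at 8 h and 24 h of TEPA against untreated cells, with 1 point per gene and a black line at the median of the list. Orange and blue mark genes called higher and lower at an adjusted p under 0.05, and grey marks genes not called. Mitochondrial import genes lie on both sides of 0 at 8 h, and at 24 h 10 of 14 are called lower (26.8% of all genes tested).

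The genes whose pattern was most like that of each enzyme were sought by Pearson's r of log2 CPM over the 9 libraries, among 9609 genes with a mean of at least 10 CPM. The libraries form 3 groups, so r mostly follows the 3 group means, and it is given as a description. CAT was most like the secreted protease HTRA1 (r = 0.995) and the surface protein CD276 (0.993). GPX4 was most like the focal adhesion protein TNS3 (0.998) and the autophagy gene MAP1LC3A (0.997). PRDX5 was most like SH3RF3 (0.997) and PCCA, a mitochondrial carboxylase subunit (0.994). GPX1 was most like the cytokine receptor IL27RA (0.998) and CAVIN1 (0.993), and PRDX3 was most like the caveolar coat gene CAV1 (0.985) and WDR76 (0.973). The nearest genes of GSR were SUCLG1, a citric acid cycle enzyme (0.987), and LRRC47 (0.986), those of TXN were ZNF623 (0.987) and the splicing factor SRSF2 (0.985), and those of SOD2 were SNAP29 and LACC1 (both 0.991). The nearest genes of PRDX1 were CWF19L1 (0.979) and RFC2 (0.899), and those of SOD3 were LTA4H (0.952) and ZDHHC9 (0.944). For these enzymes no difference between groups was called.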

How the data were processed

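RNA-Seq of 9 libraries was analysed. The authors used FastQC for read quality, HISAT2 for alignment to hg38, and featureCounts to count read pairs over the exons of each gene name, by strand, with the Ensembl GRCh38 annotation. Tool versions are not given in the sources used here. The deposited values are raw counts, 1 column per library, without normalization, and 0 columns were left out.

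In R 4.3.3, edgeR 4.0.16 (limma 3.58.1) was run on all 9 libraries in 1 quasi-likelihood fit, after filterByExpr with a minimum count of 10 (16556 genes, 99.95% of counts). TMM factors were 0.978 to 1.039, and the biological coefficient of variation was 0.0481. SE is the absolute log2 fold change over the root of F, with p-values adjusted by Benjamini-Hochberg. The procedure was tested on simulated counts. Replicate pairs differed by more than sampling noise (chi-square per degree of freedom 2.36 to 20.6 over genes), so each library was counted once. The labels do not say that replicates were separate cultures, so p-values measure the spread between these samples, which may be technical. With 3 against 3 libraries, an exact permutation test of 1 value cannot go below 0.1. Depth sets a floor on the error, and counting error is the least error of a value.

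The enzymes and lists were chosen with earlier results of these data known. List genes are named if among the 3 largest changes per list and comparison with untreated cells, with an adjusted p under 0.05 and a mean of at least 100 counts. Some genes that meet this rule are not reported here. For each enzyme the 2 most alike genes are named, and MT1X, MT2A and MT1E were taken as a check of the treatment. MT1X was at -1.06 and -1.84 and MT1E at -1.30 and -2.39 on the log2 scale at 8 h and 24 h. Positions and exon lengths are from GENCODE 44 (GRCh38), a later annotation than the one counted with, and promoters from RefSeq. Alternatives were DESeq2 1.42.0, RLE or upper-quartile factors, a filter of 10 counts in every library or none, p-values without adjustment, a log2 limit of 0.5, a fit to the compared groups alone, a replicate block, no mitochondrially encoded genes, and leaving out each library. Canonical transcript length, within-library ratios and the CCAAT and GGGCGG motifs were added after the values were seen.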

Additional observations from a re-analysis of the deposited data

Results flagged for a closer look

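For 34 of the 44 enzymes and list genes named by rule, the level differed between TEPA 24 h and TEPA 8 h. The test was edgeR's quasi-likelihood fit (adjusted p under 0.05, 3 libraries per group), by which 54.8% of all genes tested differed. The same untreated group served both times, and its harvest time is not given. Time in TEPA and time in culture were thus not separated, and whether the effect of TEPA itself differed was not tested. List genes were named for large changes against untreated cells at either time. Values are log2 differences, 24 h over 8 h, and groups of 3 were not searched for outlying libraries.

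Among the enzymes, GPX4 (0.64), PRDX5 (0.56), GPX1 (0.36), SOD2 (0.34) and PRDX3 (0.24) were higher at 24 h, and GSR (-0.41) and TXN (-0.16) lower. Their relatives GPX3 (0.59), PRDX2 (0.46), GPX8 (0.26) and PRDX4 (0.17) were also higher at 24 h.

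Lower at 24 h than at 8 h were genes of cystine uptake and glutathione synthesis, SLC7A11 (-1.33), SLC3A2 (-0.44) and GCLC (-0.25), while GLRX (0.21) was higher. In the thioredoxin system MSRA (-0.79) and SRXN1 (-0.34) were lower and NXN (0.31) higher.

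For NADPH supply, IDH2 (0.56) and IDH1 (0.34) were higher at 24 h than at 8 h, and PGD (-0.51) and NADK2 (-0.22) were lower. Of the selenocysteine genes, EEFSEC (-1.04) and SCLY (-0.78) were lower and SEPSECS (0.40) higher.

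NOX5 (1.64) was higher at 24 h than at 8 h, and AOX1 (-1.27), NOXA1 (-1.01) and ACOX2 (-0.25) were lower. The difference was no longer called for ACOX2 without TEPA 8 h replicate 2 or TEPA 24 h replicate 1 (-0.21 each), nor for NADK2 without TEPA 8 h replicate 1 (-0.15) or TEPA 24 h replicate 2 (-0.16). The mitochondrial import genes MIPEP (-0.74), TOMM40 (-0.56), TIMM44 (-0.54), TIMM50 (-0.52) and HSPA9 (-0.36) were all lower.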

How the results depend on the processing

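Over the alternatives run, 390 of 420 values of the 10 enzymes kept their direction and their side of the threshold, 16 lost a call, 6 gained one and 8 changed sign. For the named genes of the lists, 1369 of 1428 were kept, 30 lost a call, 21 gained one and 8 changed sign. A log2 limit of 0.5 lowered the counts called by its construction. At 8 h, 24 h and 24 h over 8 h, the enzymes called went from 4, 8 and 7 to 1, 1 and 2, the list genes from 65, 67 and 64 to 17, 16 and 22, and all genes from 8216, 8688 and 9079 to 2943, 3095 and 3505. Leaving out 1 library gave 3 to 5, 6 to 7 and 7 enzymes called.

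The values that changed sign were near 0 or rested on 1 library, and the cause was not tested. At 8 h they were PRDX1 with upper-quartile factors (0.01) and without untreated replicate 2 (0.00), GSR with no filter (0.00) and without TEPA 8 h replicate 3 (-0.02), and GPX3 without untreated replicate 1 (0.02) or TEPA 8 h replicate 1 (0.01) or 2 (0.03). At 24 h they were SOD3 with upper-quartile factors (0.01), and without untreated replicate 1 (0.14) or TEPA 24 h replicate 1 (0.00), PRDX1 (-0.01), IDH2 (0.06) and NOX5 (0.19) without untreated replicate 1, and SLC3A2 without untreated replicate 2 (0.01). Over all left-out libraries, the 8 h values ran from -0.03 to 0.00 for PRDX1 and -0.13 to 0.03 for GPX3, and the 24 h values from -0.11 to 0.14 for SOD3, -0.13 to 0.06 for IDH2 and -0.32 to 0.19 for NOX5. For 24 h over 8 h, the value that changed sign was that of PEX13 without TEPA 8 h replicate 3 (-0.02) or TEPA 24 h replicate 3 (-0.09). SOD3 gained a call with no filter at 8 h (-0.22, adjusted p = 0.0066) and for 24 h over 8 h (0.20, adjusted p = 0.015), and for the latter in a fit to the compared groups alone (0.21, adjusted p = 0.0037).

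The replicate numbers did not pair the libraries, since same-numbered libraries had correlations of their deviations from -0.0801 to 0.0383. With the replicate block, 4, 7 and 7 enzymes and 60, 63 and 63 list genes were called, and TXN at 24 h lost its call (-0.10, adjusted p = 0.059). The block changed no other call of the 10 enzymes, and among the named list genes it ended the calls of SLC7A11 (0.24, adjusted p = 0.055) and NOXA1 (-0.28, adjusted p = 0.055) at 8 h and AOX1 (-0.29, adjusted p = 0.057) at 24 h.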
